A study of Mus musculus with 8 samples.

Results

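The genes described here are 35 genes of DNA replication and the cell cycle, 19 of them acting in replication or nucleotide supply, 3 of them G1 cyclins and 13 of them acting in mitosis. They were chosen by name and looked up by symbol, and each matched 1 of the 23699 annotated loci in the deposited liver tables, so all 35 were measured. Polyadenylated RNA was sequenced from livers of male C57/BL6 mice aged 8 weeks. LMKO mice, a liver-specific knockout of Med23, were re-fed for 24 h after a fast of 24 h, control mice were re-fed in the same way, and LMKO and control mice were also killed after the fast alone. Every mouse had thus been fasted for 24 h. There were 2 libraries in each of the 4 groups, and the design text gives 2 mice per group. The labels name neither the Cre driver nor the alleles that the control mice carry. Expression levels are FPKM, which the authors computed as fragments scaled to transcript length and to the total of mapped fragments.

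Replication starts from origins on which the Mcm2 to Mcm7 helicase is loaded by Cdc6 and Cdt1 in the G1 phase and switched on with the help of the GINS complex and Mcm10. Pcna clamps the polymerases to DNA, Lig1 joins the new fragments, and Tk1, Tyms, Rrm1, Rrm2 and Dut keep up the supply of deoxynucleotides. D and E cyclins drive the passage into S phase by releasing E2F transcription factors from Rb family proteins, and genes of mitosis are transcribed later, many of them through CCAAT boxes and the cell cycle homology region (CHR). Most hepatocytes of an adult liver are out of the cycle and can enter it again, for example after loss of tissue.

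The promoters of the replication and mitosis genes differed in the letters they held. RefSeq promoter windows (GRCm38.p6, from 250 bases before to 50 bases after the start, not the build of the expression data) were found for 27 of the 35 genes; Mcm4, Gins1, Gins2, Ccnd1, Ccne2, Ccna2, Aurkb and Foxm1 had no entry. An E2F motif, written TTTGGCGC, TTTCCCGC, TTTCGCGC or TTTGCCGC and searched on both strands, was present in 8 of 16 replication genes with a window, in 1 of 10 mitosis genes (Cdk1) and in 2.60% of 27025 genes in the table. A CHR motif, TTTGAA or TTCGAA on both strands, was present in 2 of 16 replication genes, in 8 of 10 mitosis genes and in 21.7% of all genes. A CCAAT box on either strand was present in 10 of 16 replication genes, in 9 of 10 mitosis genes and in 41.1% of all genes. Matches of different motifs overlapped 2 times in the 152 windows of these genes and of the other cell cycle genes listed, and a match of letters is not a measured binding site. The windows of 2 replication genes and 2 mitosis genes with large re-feeding responses in controls are given here, 5′ to 3′, to show these letters. E2F motifs are in capitals in Mcm3 and Mcm6, and CHR motifs in capitals in Cdc20 and Ccnb2.
Mcm3 (chr1:20820263-20820562, minus strand): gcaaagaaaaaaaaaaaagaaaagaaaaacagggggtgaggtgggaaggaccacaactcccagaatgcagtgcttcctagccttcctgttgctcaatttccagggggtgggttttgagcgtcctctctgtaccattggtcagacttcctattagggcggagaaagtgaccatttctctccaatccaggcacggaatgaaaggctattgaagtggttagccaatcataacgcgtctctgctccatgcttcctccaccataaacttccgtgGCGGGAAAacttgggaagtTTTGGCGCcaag
Mcm6 (chr1:128359656-128359955, minus strand): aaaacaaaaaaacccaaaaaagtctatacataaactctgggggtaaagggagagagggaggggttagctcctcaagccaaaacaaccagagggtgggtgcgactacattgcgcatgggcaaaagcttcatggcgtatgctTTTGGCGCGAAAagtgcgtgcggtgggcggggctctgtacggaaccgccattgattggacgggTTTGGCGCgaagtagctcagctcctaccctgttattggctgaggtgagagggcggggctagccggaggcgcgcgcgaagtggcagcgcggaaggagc
Cdc20 (chr4:118437294-118437593, minus strand): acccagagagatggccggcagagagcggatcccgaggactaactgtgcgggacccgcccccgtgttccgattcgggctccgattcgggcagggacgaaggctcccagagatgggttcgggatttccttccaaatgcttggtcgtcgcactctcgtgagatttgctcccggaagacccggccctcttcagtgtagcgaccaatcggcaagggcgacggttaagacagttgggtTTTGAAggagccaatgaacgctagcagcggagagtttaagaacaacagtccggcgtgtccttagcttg
Ccnb2 (chr9:70421505-70421804, minus strand): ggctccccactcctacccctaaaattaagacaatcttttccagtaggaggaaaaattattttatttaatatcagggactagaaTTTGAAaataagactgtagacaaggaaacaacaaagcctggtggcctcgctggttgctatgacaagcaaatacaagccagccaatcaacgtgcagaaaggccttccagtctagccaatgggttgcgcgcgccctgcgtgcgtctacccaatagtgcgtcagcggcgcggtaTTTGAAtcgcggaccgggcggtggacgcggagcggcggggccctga
Mcm3 carries E2F letters on both sides of one short stretch after the start, and Mcm6 carries 3 matches before the start, the upstream pair of them overlapping. Cdc20 holds its CHR motif close to a CCAAT box just before the start.

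Between 10096 and 10403 loci per library reached 1 FPKM, and log2(FPKM + 1) values correlated at 0.963 to 0.976 between the libraries of a group, across genes. In each library, a locus's deviation from its own mean over the 8 libraries was correlated with its log2 transcript length. This correlation lay between 0.222 and 0.293 in the fasted libraries. It lay between -0.357 and -0.325 in the re-fed ones, except in re-fed control replicate 1, where it was -0.018. This library had the highest level of all 8 for 27 of the 35 genes, 13 of 19 replication genes and 12 of 13 mitosis genes, against 12.6% of all 15994 loci above 0 in at least 4 libraries. Med23 itself had 1.61 and 1.74 FPKM in re-fed LMKO livers, 2.86 and 2.33 in re-fed control livers, 2.35 and 2.18 in fasted LMKO livers and 2.86 and 2.93 in fasted control livers. It was lower in both LMKO groups with no overlap, but limma's Benjamini-Hochberg adjusted p was 0.315 in re-fed and 0.438 in fasted livers, and the labels do not say which exons were deleted. The 10 hepatocyte markers looked up were all found and summed to between 31100 and 48200 FPKM per library; the albumin gene, which defines hepatocytes too, was listed at 0 in all 8 libraries, so a listed 0 in these tables need not mean that no RNA was present.

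Replication genes were present at low to moderate levels and mitosis genes at very low ones. The median over genes of each gene's median level was 1.51 FPKM for replication, 0.825 FPKM for the G1 cyclins and 0.157 FPKM for mitosis. Of the 19 replication genes, 8 reached 1 FPKM in every library and 1, Cdc6, stayed under 1 FPKM in every library. Of the 13 mitosis genes, 10 stayed under 1 FPKM in every library: Ccna2, Ccnb1, Ccnb2, Cdk1, Mki67, Top2a, Aurkb, Plk1, Bub1 and Foxm1. The tests below were run with limma on log2(FPKM + 1) for the 10865 loci with at least 1 FPKM in at least 2 libraries, which 16 replication genes, 2 G1 cyclins and 3 mitosis genes passed; Cdc6, Gins2, Uhrf1 and Ccne2 were the others to fall short. Mcm2, Mcm4, Mcm5, Birc5, Aurka and Cdc20 passed only through re-fed libraries, so counts among the genes tested lean towards re-feeding. Cdc20 reached 1 FPKM only in the re-fed control libraries, and Birc5 and Aurka only in these and in re-fed LMKO replicate 2. Counts among the 3 mitosis genes tested thus also lean towards high levels in re-fed controls. Folds are log2 fold changes of re-fed over fasted, or of LMKO over control, on the log2(FPKM + 1) scale, where the added 1 makes the folds of low genes smaller.

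With re-feeding, replication and mitosis genes rose in control livers, and fewer of them passed the test in LMKO livers. In LMKO livers 3 of the 16 replication genes tested rose (Dut, Gins1 and Tyms) and 1 fell (Cdt1). Of all loci tested, 23.2% rose and 16.3% fell. Ccnd1 rose, and none of the 3 mitosis genes tested passed (limma). Of these 3, 2 had an unadjusted p under 0.05, against 49.7% of all loci. In controls 9 replication genes rose (Mcm2, Mcm3, Mcm4, Mcm5, Mcm6, Tk1, Tyms, Dut and Gins1) and none fell, where 22.8% of all loci rose and 10.5% fell. Ccnd1 rose, and so did all 3 mitosis genes tested. Mcm2, Mcm4, Mcm5 and these 3 mitosis genes passed the filter only through re-fed libraries. The counts in controls are thus not like for like with the share of all loci. In whole liver, more cells that express a gene and more RNA per cell cannot be told apart. A number in the submitters' names for the tables is the same for all fasted libraries and another for all re-fed ones; its meaning is not stated, and a batch, if it marks one, cannot be told apart from feeding.

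Summed markers of cholangiocytes, erythroid cells, sinusoidal endothelial cells and stellate cells differed with feeding too. Cholangiocyte markers summed to 24.7 to 26.6 FPKM in re-fed LMKO, 28.7 to 30.9 in re-fed control, 8.25 to 9.59 in fasted LMKO and 8.52 to 12.2 in fasted control livers. Of 3 tested, 1 rose in each genotype (limma), where 23.2% of loci rose in LMKO livers and 22.8% in controls. Erythroid markers summed to 99.5 to 136 FPKM in re-fed LMKO and 111 to 163 in re-fed control livers. In fasted livers they summed to 46.9 to 53.4 FPKM in LMKO and 62.1 to 106 in controls. All 6 erythroid markers tested had a fold above 0 in both genotypes, against 54.4% of loci in LMKO livers and 60.1% in controls. None of the 6 passed (limma). Sinusoidal endothelial markers summed to 42.8 to 56.9 FPKM in re-fed LMKO, 52.1 to 56.2 in re-fed control, 99.2 to 102 in fasted LMKO and 73.8 to 78.4 in fasted control livers, and 7 of 8 fell in LMKO livers and 6 of 8 in controls (limma). Of 9 Kupffer cell and macrophage markers 5 fell in LMKO livers and 1 in controls. Of all loci tested, 16.3% fell in LMKO livers and 10.5% in controls, so the last count lies near the background. Stellate cell markers summed to 43.7 to 57.7 FPKM in re-fed LMKO and 59.0 to 76.5 in re-fed control livers. In fasted livers they summed to 80.2 to 88.7 FPKM in LMKO and 79.3 to 85.3 in controls. Of 7 tested, 3 had a fold above 0 in LMKO livers and 5 in controls, so the single markers did not share a direction. The part of these cell types in the re-feeding responses was not tested.

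With no filter on low levels all 35 genes entered the fit. In LMKO livers 3 of 19 replication genes, 1 of 3 G1 cyclins and 1 of 13 mitosis genes then rose, where 12.8% of 17844 loci rose. In controls 6 of 19 replication genes, 1 of 3 G1 cyclins and 11 of 13 mitosis genes rose, where 12.3% of loci rose. The median log2 fold change was 0.22 in LMKO livers and 0.64 in controls for replication genes, and 0.13 and 0.56 for mitosis genes, against 0.00 and 0.02 for all loci. Both re-fed LMKO libraries lay above both fasted ones for 13 of 19 replication genes and 5 of 13 mitosis genes, against 34.8% of 15994 loci. Both re-fed control libraries lay above both fasted ones for 17 of 19 replication genes and 13 of 13 mitosis genes, against 38.4% of loci. Scaling between libraries moved the background in controls: the median fold of all 10865 loci was 0.125 as deposited, 0.009 after median-ratio scaling and -0.001 after quantile normalization, and 68.5%, 53.3% and 49.7% of the calls were rises. The median fold of the 16 replication genes was 0.72, 0.62 and 0.67 in these 3 fits.

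The Mcm helicase subunits moved together in controls except for Mcm7. Mcm6 had 1.91 and 2.81 FPKM in re-fed LMKO, 7.08 and 3.15 in re-fed control, 1.10 and 1.51 in fasted LMKO and 0.696 and 0.131 in fasted control livers. Its re-fed control levels lay above all others and its fasted control levels below all others, and the fold was 0.54 in LMKO livers (SE 0.35, limma adjusted p = 0.255), against 2.06 in controls (SE 0.35, adjusted p = 0.00757), where it ran from 1.58 to 2.55 in the fits that left out 1 library. Mcm5 had 0.592 and 1.14 FPKM in re-fed LMKO, 2.54 and 1.05 in re-fed control, 0.297 and 0.195 in fasted LMKO and 0.126 and 0.219 in fasted control livers. In both genotypes all re-fed levels exceeded all fasted ones, and the fold was 0.57 in LMKO livers (SE 0.27, limma adjusted p = 0.136), against 1.20 in controls (SE 0.27, adjusted p = 0.0178), a call lost without either fasted control library. Mcm3 had 1.32 and 1.92 FPKM in re-fed LMKO, 2.98 and 2.14 in re-fed control, 1.04 and 0.958 in fasted LMKO and 0.864 and 0.682 in fasted control livers. No pair of groups overlapped, the re-fed controls being highest and the fasted controls lowest, with folds of 0.38 in LMKO livers (SE 0.17, limma adjusted p = 0.115) and 1.0 in controls (SE 0.17, adjusted p = 0.00777).

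Mcm2 had 0.916 and 1.46 FPKM in re-fed LMKO, 2.36 and 0.951 in re-fed control, 0.421 and 0.351 in fasted LMKO and 0.405 and 0.324 in fasted control livers. Mcm4 had 0.978 and 1.47 FPKM in re-fed LMKO, 1.89 and 1.17 in re-fed control, 0.711 and 0.851 in fasted LMKO and 0.721 and 0.550 in fasted control livers. For both genes the genotypes overlapped within each feeding state while the feeding states did not, and limma gave adjusted p = 0.0364 for Mcm2 and 0.0410 for Mcm4 in controls. Both calls were lost without any 1 of the 4 fasted libraries, and that of Mcm4 also without re-fed control replicate 1 and with either scaling; quantile normalization ended that of Mcm2. With no filter, with only the 4 control libraries or with the length trend removed, both calls were lost as well. Mcm7 had 4.48 and 5.52 FPKM in re-fed LMKO, 5.15 and 4.44 in re-fed control, 6.0 and 4.38 in fasted LMKO and 4.76 and 3.78 in fasted control livers, levels that overlapped between the feeding states in both genotypes. Mcm10 had the highest level of the set in most libraries, 27.1 and 23.8 FPKM in re-fed LMKO, 19.5 and 24.0 in re-fed control, 21.3 and 34.0 in fasted LMKO and 18.7 and 14.2 in fasted control livers. Neither Mcm7 nor Mcm10 passed the test in any comparison.

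The origin loading and activating factors did not share a direction. Gins1, a subunit of GINS, had 2.86 and 3.98 FPKM in re-fed LMKO, 3.42 and 3.39 in re-fed control, 1.48 and 1.43 in fasted LMKO and 2.24 and 1.29 in fasted control livers. It rose with re-feeding in LMKO livers (fold 0.84, SE 0.20, limma adjusted p = 0.0163) and in controls (0.69, SE 0.20, adjusted p = 0.0358). The LMKO call was lost without either fasted LMKO library or re-fed LMKO replicate 2, and the control call without fasted control replicate 2, either fasted LMKO library or either re-fed control library. With the length trend removed both calls were lost, and the control call also with no filter or only the 4 control libraries; without fasted control replicate 2 the control fold was 0.44. Cdt1 had 0.752 and 0.822 FPKM in re-fed LMKO, 1.31 and 0.874 in re-fed control, 1.88 and 1.58 in fasted LMKO and 0.977 and 1.54 in fasted control livers. It is the only one of the 21 genes tested that fell with re-feeding, in LMKO livers, by 0.61 on the log2 scale (SE 0.17, limma adjusted p = 0.0285), where 16.3% of loci fell; the call was lost without any 1 of the 4 LMKO libraries, with quantile normalization and with no filter. In controls its levels overlapped between feeding states. Gins2, Cdc6 and Uhrf1, the factor that reads hemimethylated DNA behind the fork, were too low to be tested. Gins2 reached 1.32 FPKM and Uhrf1 1.11 FPKM in re-fed control replicate 1, and both stayed below 1 FPKM in all other libraries.

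**Figure D1:**
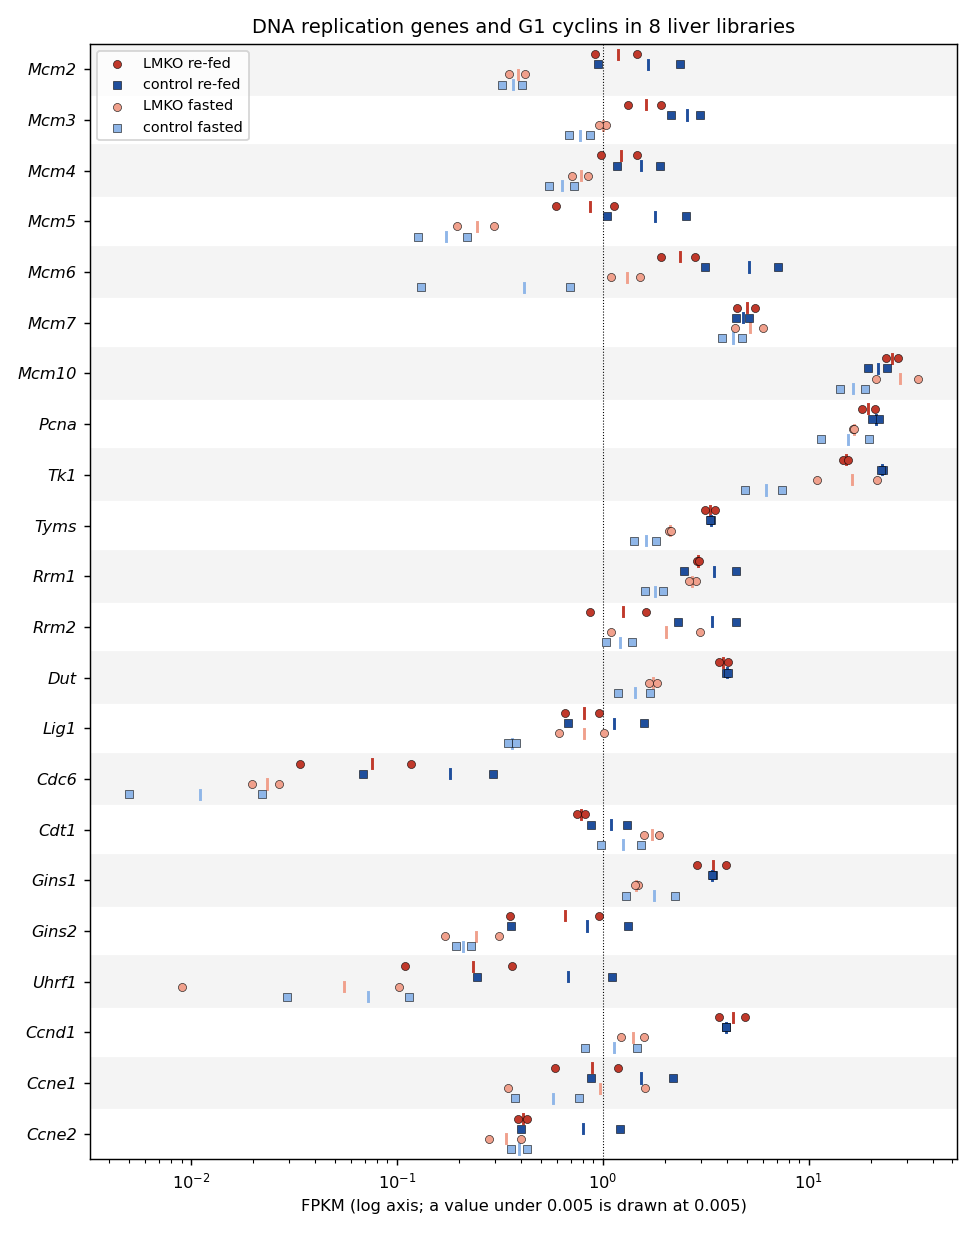
FPKM (log axis) of 19 replication genes and 3 G1 cyclins in each of 8 liver libraries; points are libraries, short bars the means of 2, circles LMKO and squares control, dark re-fed and pale fasted, and the dotted line is 1 FPKM. Mcm6 lies between 1.10 and 2.81 FPKM in the LMKO libraries, and reaches 7.08 FPKM in a re-fed control and 0.131 FPKM in a fasted control.

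Of the nucleotide supply genes, Dut and Tyms rose with re-feeding in both genotypes and Tk1 in controls. Tk1, thymidine kinase, had 14.7 and 15.6 FPKM in re-fed LMKO, 23.1 and 22.5 in re-fed control, 11.0 and 21.5 in fasted LMKO and 7.44 and 4.91 in fasted control livers. Its fold with re-feeding was -0.02 in LMKO livers (SE 0.30, limma adjusted p = 0.962) and 1.75 in controls (SE 0.30, adjusted p = 0.00796). The LMKO response minus the control response was -1.78 (95% interval -2.79 to -0.76), which did not pass after adjustment over all loci (limma adjusted p = 0.481). Tk1 shares 96 bases with Afmid (39.2 to 76.8 FPKM), and no source used here says whether the counting used strand.

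Dut, which removes dUTP, had 3.65 and 4.05 FPKM in re-fed LMKO, 3.98 and 4.07 in re-fed control, 1.83 and 1.67 in fasted LMKO and 1.69 and 1.19 in fasted control livers. Tyms, thymidylate synthase, had 3.15 and 3.50 FPKM in re-fed LMKO, 3.37 and 3.33 in re-fed control, 2.09 and 2.15 in fasted LMKO and 1.81 and 1.42 in fasted control livers. For both genes the re-fed levels of the genotypes overlapped and lay above every fasted level. The folds were 0.82 in LMKO livers and 1.05 in controls for Dut (SE 0.13 each, limma adjusted p = 0.00506 and 0.00344) and 0.47 and 0.74 for Tyms (SE 0.12 each, adjusted p = 0.0203 and 0.00648), and the LMKO call of Tyms was lost without any 1 of the 4 LMKO libraries. Rrm2, the regulated subunit of ribonucleotide reductase, had 1.63 and 0.869 FPKM in re-fed LMKO, 4.46 and 2.32 in re-fed control, 2.98 and 1.10 in fasted LMKO and 1.39 and 1.04 in fasted control livers. Rrm1, its large subunit, had 2.86 and 2.92 FPKM in re-fed LMKO, 4.45 and 2.47 in re-fed control, 2.84 and 2.61 in fasted LMKO and 1.97 and 1.61 in fasted control livers. Neither subunit passed the test in any comparison; in controls limma's adjusted p was 0.0882 for Rrm2 and 0.0549 for Rrm1.

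Pcna had 18.1 and 20.9 FPKM in re-fed LMKO, 22.0 and 20.4 in re-fed control, 16.5 and 16.7 in fasted LMKO and 19.6 and 11.5 in fasted control livers. Lig1 had 0.659 and 0.954 FPKM in re-fed LMKO, 1.58 and 0.680 in re-fed control, 1.01 and 0.612 in fasted LMKO and 0.347 and 0.378 in fasted control livers. Neither gene of the fork passed the test in any comparison. The Pcna and Tyms loci have processed pseudogene copies, so a part of their reads may be shared, and Lig1 overlaps another locus over 1409 bases.

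Among the G1 cyclins, Ccnd1 rose with re-feeding in both genotypes. Ccnd1, cyclin D1, had 3.66 and 4.90 FPKM in re-fed LMKO, 3.98 and 3.97 in re-fed control, 1.23 and 1.59 in fasted LMKO and 0.819 and 1.46 in fasted control livers. Its fold was 1.13 in LMKO livers (SE 0.19, limma adjusted p = 0.00555) and 1.24 in controls (SE 0.19, adjusted p = 0.00581), and the difference of the responses was -0.11 (95% interval -0.74 to 0.52), with a sign that 3 of the fits without a library did not keep. Ccne1, cyclin E1, had 0.586 and 1.19 FPKM in re-fed LMKO, 2.20 and 0.879 in re-fed control, 0.348 and 1.6 in fasted LMKO and 0.376 and 0.770 in fasted control livers, and it passed no test. Ccne2 lay between 0.279 and 0.427 FPKM in 7 libraries and at 1.21 FPKM in re-fed control replicate 1, and its locus overlaps Ints8 over 5622 bases.

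The mitosis genes showed their highest levels in the re-fed control livers, for each of the 13. Their summed level was 2.71 and 5.64 FPKM in re-fed LMKO livers, 11.1 and 9.90 in re-fed control livers, 2.08 and 2.25 in fasted LMKO livers and 1.95 and 2.15 in fasted control livers. The fasted livers of both genotypes thus had sums close to each other, the re-fed LMKO livers came next and the re-fed controls stood highest. The replication genes gave sums of 86.2 and 93.2 FPKM in re-fed LMKO, 112 and 97.6 in re-fed control, 72.9 and 91.8 in fasted LMKO and 64.1 and 45.1 in fasted control livers, a narrower spread that Pcna, Mcm10 and Tk1 dominate.

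Cdc20, which activates the anaphase-promoting complex, had 0.297 and 0.696 FPKM in re-fed LMKO, 1.25 and 1.95 in re-fed control, 0.0919 and 0.0723 in fasted LMKO and 0.0595 and 0.0814 in fasted control livers. Birc5, survivin of the chromosomal passenger complex, had 0.231 and 1.04 FPKM in re-fed LMKO, 2.27 and 2.05 in re-fed control, 0.0993 and 0.455 in fasted LMKO and 0.631 and 0.498 in fasted control livers. Aurka, a spindle kinase, had 0.810 and 1.08 FPKM in re-fed LMKO, 1.66 and 1.37 in re-fed control, 0.546 and 0.554 in fasted LMKO and 0.608 and 0.586 in fasted control livers. In all 3 genes both re-fed control livers lay above the other 6. Re-feeding folds were 0.45 in LMKO livers and 1.27 in controls for Cdc20 (SE 0.18 each, limma adjusted p = 0.0899 and 0.00501). They were 0.33 and 1.01 for Birc5 (SE 0.25 each, limma adjusted p = 0.336 and 0.0243) and 0.32 and 0.65 for Aurka (SE 0.12 each, adjusted p = 0.0776 and 0.0106). Of these control calls that of Aurka was lost without fasted control replicate 2 and with the length trend removed, and that of Birc5 without any 1 of the 4 control libraries and with a pseudocount of 0.1; without either re-fed control library Cdc20 no longer reached the level needed to be tested. Cdc20 shares 16 bases with Elovl1 (9.64 to 37.8 FPKM).

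The 10 mitosis genes under 1 FPKM were tested only with the filter left off. Ccnb2, a cyclin B partner of Cdk1, had 0.132 and 0.380 FPKM in re-fed LMKO, 0.862 and 0.859 in re-fed control, 0.174 and 0.107 in fasted LMKO and 0.141 and 0.0962 in fasted control livers. Plk1, polo-like kinase, had 0.132 and 0.240 FPKM in re-fed LMKO, 0.455 and 0.410 in re-fed control, 0.247 and 0.214 in fasted LMKO and 0.0470 and 0.0321 in fasted control livers. Both were highest in re-fed controls, and Plk1 had fasted LMKO levels above the fasted control ones. Ccna2, Ccnb1, Mki67, Top2a, Aurkb and Foxm1 rose together with Ccnb2 and Plk1 in controls, where adjusted p-values by limma ran from 0.00593 for Ccna2 to 0.0233 for Mki67. Cdk1 and Bub1 did not pass (limma adjusted p = 0.0695 and 0.145). In LMKO livers Ccna2 was the 1 mitosis gene that rose (fold 0.26, SE 0.07, limma adjusted p = 0.0494). Bub1, the checkpoint kinase, stayed at or under 0.110 FPKM in all libraries. Ccnb1 was listed at 0 in 1 fasted LMKO and 1 fasted control library, where the zeros may be failed estimates, and the Ccnb1, Ccnb2 and Ccna2 loci have pseudogene copies or an overlapping neighbour.

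**Figure D2:**
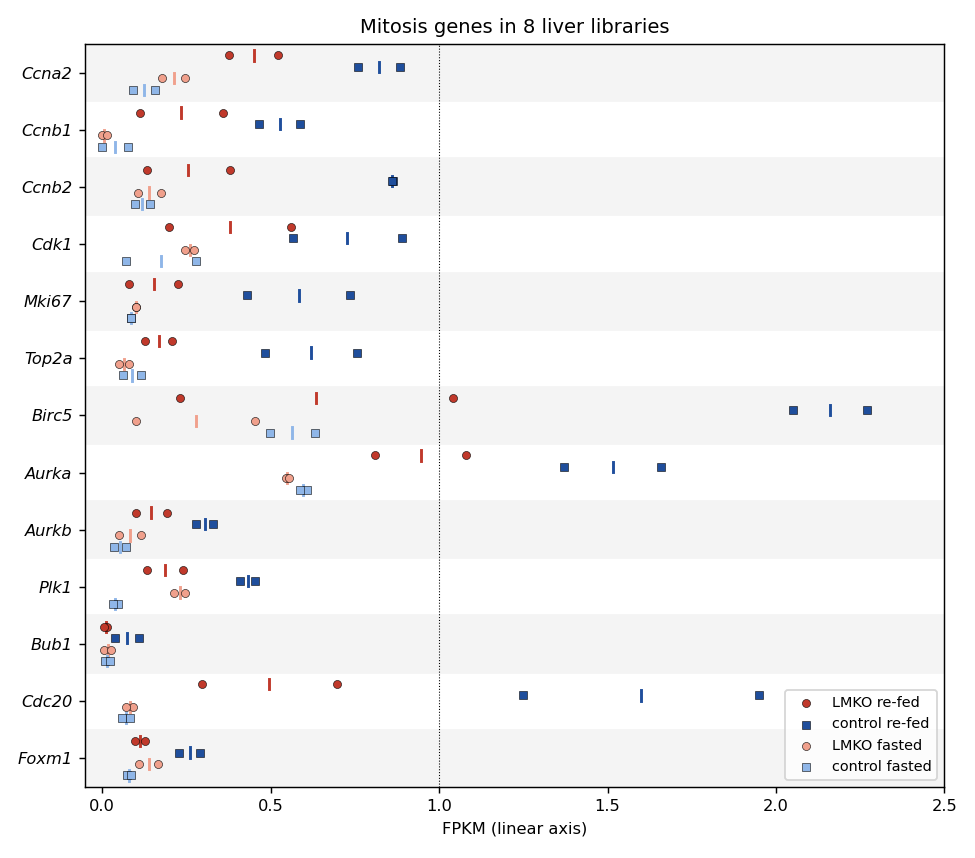
FPKM (linear axis) of the 13 mitosis genes in each of 8 liver libraries; points are libraries, short bars the means of 2, circles LMKO and squares control, dark re-fed and pale fasted, and the dotted line is 1 FPKM. Re-fed control libraries sit to the right of all others in each row, with Birc5 at 2.27 and 2.05 FPKM and Cdc20 at 1.25 and 1.95 FPKM.

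A call in controls and not in LMKO livers does not show that the responses differ. The difference of the responses itself passed for none of the 21 genes by limma, where 0.0368% of loci passed, and at an unadjusted p under 0.05 for 4 replication genes (Mcm3, Mcm6, Rrm2 and Tk1) and 1 mitosis gene (Cdc20), against 9.35% of all loci. For Mcm6 it was -1.53 (95% interval -2.69 to -0.36, limma adjusted p = 0.507), and for Cdc20 it was -0.81 (95% interval -1.43 to -0.20, adjusted p = 0.507). With no filter, where 0.0392% of loci passed and none of the 35 genes did, it was below 0 for 13 of 13 mitosis genes, of which 8 had an unadjusted p under 0.05, and for 18 of 19 replication genes; over all loci 59.8% were below 0 and 9.13% had an unadjusted p under 0.05, and limma's smallest adjusted p was 0.312, for Plk1.

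**Figure D3:**
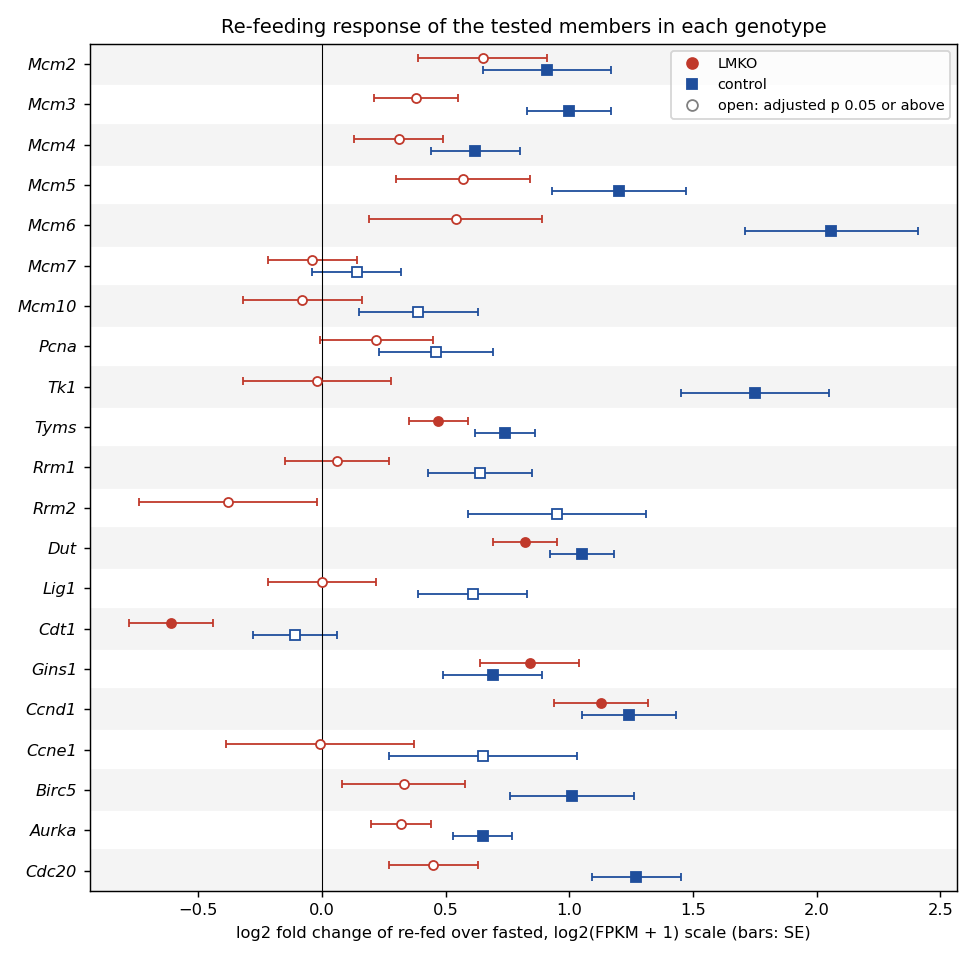
Log2 fold change of re-fed over fasted livers on the log2(FPKM + 1) scale for the 21 genes tested, LMKO (circles) above control (squares) in each row, with bars of 1 SE; filled symbols passed an adjusted p of 0.05. Ccnd1, Dut and Gins1 have similar folds in both genotypes, while Tk1 has -0.02 in LMKO livers and 1.75 in controls.

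Between the genotypes after re-feeding, mitosis genes were lower in LMKO livers without overlap, in 13 of 13, against 21.6% of 15994 loci. The same 2 re-fed control libraries enter this comparison, the re-feeding response of controls and the difference of the responses. A high level in them moves all 3, so these are not separate results. Replicate 1 of the re-fed controls had the highest level of all 8 libraries for 12 of the 13. The ratio of LMKO to control means ran from 0.140 for Bub1 to 0.624 for Aurka, with a median of 0.430. None of the 3 tested passed (limma, where 0.101% of loci were called), and all 3 had an unadjusted p under 0.05, against 11.7% of loci. These 3 passed the filter mainly through their re-fed control levels, so the shares are not like for like. By limma the folds were -0.80 for Cdc20 (SE 0.18, adjusted p = 0.273), -0.99 for Birc5 (SE 0.25, adjusted p = 0.296) and -0.37 for Aurka (SE 0.12, adjusted p = 0.358). Without re-fed LMKO replicate 1 the fold of Birc5 was -0.63. With no filter, 12 of 13 had an unadjusted p under 0.05, against 10.3% of loci, and none passed, where 0.0560% of loci did, and limma's smallest adjusted p was 0.220, for Ccnb2 (fold -0.57, SE 0.09). Of the replication genes 5 of 19 were lower without overlap (Cdt1, Mcm3, Mcm6, Rrm2 and Tk1) and none was higher. Of all loci 21.6% were lower and 21.0% higher in this way, so the count of lower genes lies near the background. Their ratios had a median of 0.720, and Mcm7, Mcm10 and Gins1 had ratios above 1. None of the 16 tested passed (limma), and 2, Mcm3 and Rrm2, had an unadjusted p under 0.05, a share near the 11.7% of all loci.

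Many markers of other liver cells had lower levels in the same livers. Of 10 Kupffer cell and macrophage markers 9 were found. They summed to 55.9 to 84.7 FPKM in re-fed LMKO and 95.4 to 122 FPKM in re-fed control livers. All 9 had a fold below 0, against 48.5% of all loci tested, and 4 of the 9 were lower without overlap. Of 8 sinusoidal endothelial markers 7 were lower without overlap, with sums of 42.8 to 56.9 FPKM in re-fed LMKO and 52.1 to 56.2 FPKM in re-fed control livers. Of 7 stellate cell markers 4 were lower without overlap, with sums of 43.7 to 57.7 FPKM in re-fed LMKO and 59.0 to 76.5 FPKM in re-fed control livers. The background for these 3 counts without overlap is the 21.6% of 15994 loci that were lower in this way. No marker of these 3 lists passed limma's test between the genotypes. Cholangiocyte markers summed to 24.7 to 26.6 FPKM in re-fed LMKO and 28.7 to 30.9 FPKM in re-fed control livers. Erythroid markers summed to 99.5 to 136 FPKM in re-fed LMKO and 111 to 163 FPKM in re-fed control livers. Of 8 erythroid loci above 0 in at least 4 libraries, 2 (Alas2 and Klf1) were lower without overlap and 1 (Hba-a2) higher. Of all loci 21.6% were lower and 21.0% higher, so both counts lie near or below the background. In controls Alas2 and Klf1 also lay above their fasted levels without overlap after re-feeding, against 38.4% of loci. Markers of T and NK cells stayed under 1 FPKM in every library for 6 of 7, and those of B cells for 4 of 4. Neutrophil markers summed to 4.69 to 9.84 FPKM in re-fed LMKO and 1.25 to 5.94 FPKM in re-fed control livers, with Ngp, Camp, Ltf and Mpo at 0 in at least 4 libraries. The part of these cell types in the levels of the cycle genes was not tested.

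After the fast alone, none of the 21 genes tested passed between the genotypes. LMKO livers had levels above the control ones without overlap for 8 of 19 replication genes (Cdt1, Lig1, Mcm3, Mcm6, Mcm10, Rrm1, Tk1 and Tyms) and below for none, against 29.8% of 15994 loci above and 13.5% below. The ratio of LMKO to control means exceeded 1 for 17 of 19, with a median of 1.31. By limma 0.166% of loci were called, and Tk1 (fold 1.22, SE 0.30, adjusted p = 0.201) and Mcm10 (fold 0.69, SE 0.24, adjusted p = 0.338) had an unadjusted p under 0.05, 2 of the 16 replication genes tested, near the 12.4% of all loci. With no filter none of the 35 passed either, where 0.0616% of loci did. The median fold of all 10865 loci in this comparison was 0.079, and 64.8% of them had a fold above 0. Of the mitosis genes 4 of 13 were above without overlap (Ccna2, Foxm1, Mki67 and Plk1) and 2 below (Aurka and Birc5). Both counts lie near the 29.8% and 13.5% of loci. The fasted controls enter both this comparison and the re-feeding response of controls, so a low level in them moves both; Mcm6 in fasted control replicate 2 was 0.131 FPKM, the lowest of its 8 values. Sinusoidal endothelial markers summed to 99.2 to 102 FPKM in fasted LMKO and 73.8 to 78.4 FPKM in fasted control livers, and the part of these cells was not tested.

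**Figure D4:**
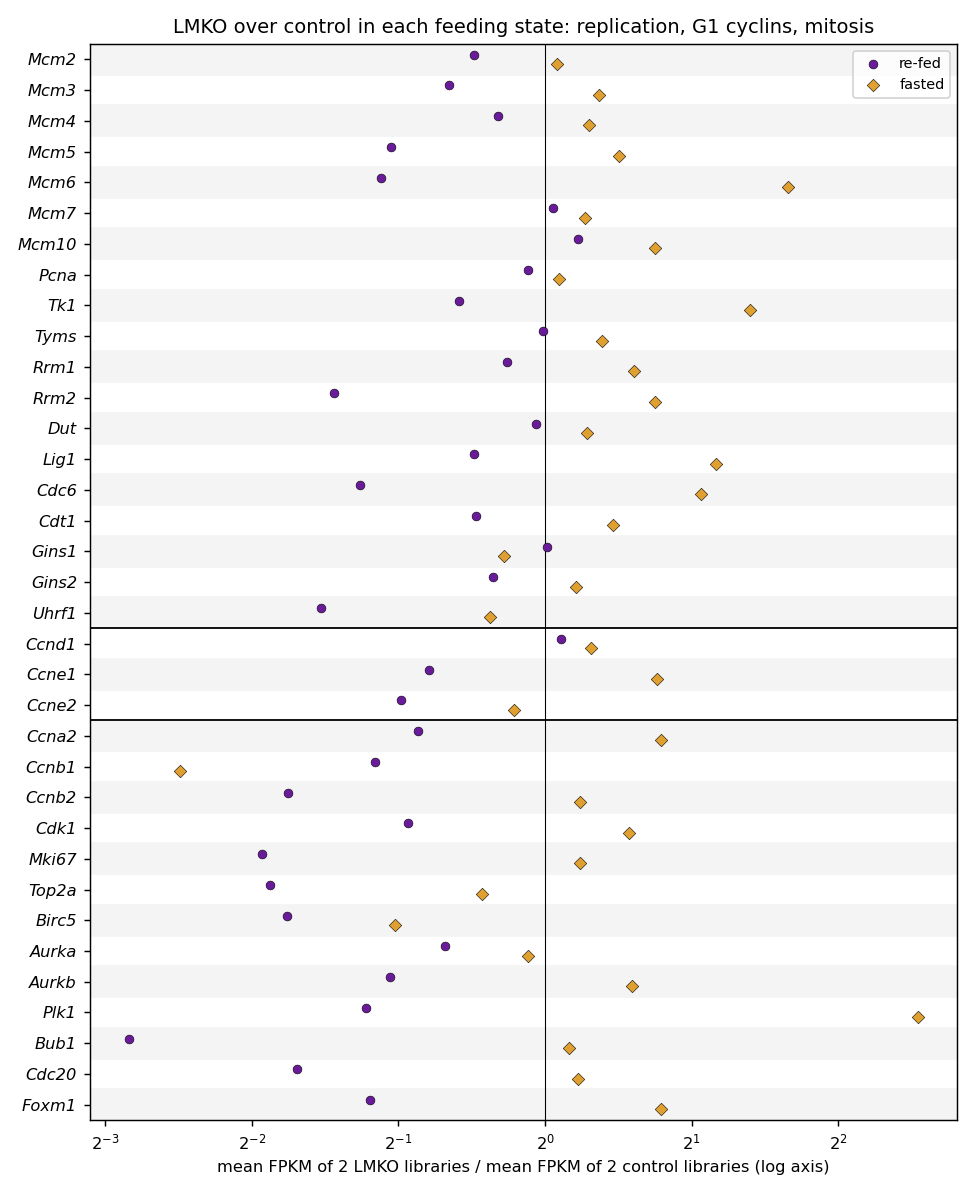
Ratio of the mean FPKM of 2 LMKO libraries to that of 2 control libraries (log axis) for each of the 35 genes, re-fed (circles) and fasted (diamonds); lines part replication genes, G1 cyclins and mitosis genes, and ratios of genes near 0 FPKM are uncertain. All 13 mitosis genes have re-fed ratios below 1, and 17 of 19 replication genes have fasted ratios above 1.

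Of 41 other replication genes listed, 30 were tested, and with re-feeding 12 rose in LMKO livers, where 23.2% of loci rose, and 15 in controls, where 22.8% did. None fell, and the other 18 in LMKO livers and 15 in controls did not pass. Those with the smallest p were Dtymk, which makes dTDP (fold 1.52 in LMKO livers and 1.31 in controls), the primase subunit Prim2 (0.57 and 1.06), the clamp loader subunits Rfc4 (0.63 and 1.0) and Rfc5 (0.64 and 1.27), the flap nuclease Fen1 (1.12 and 1.37) and the polymerase delta subunit Pold2 (1.72 and 1.39). All 6 passed in both genotypes, with limma adjusted p-values of at most 0.0345 in LMKO livers and at most 0.0135 in controls. The LMKO calls of Prim2, Rfc4 and Rfc5 were lost without fasted LMKO replicate 2 or re-fed LMKO replicate 2, that of Rfc5 also without any 1 of the other re-fed libraries or fasted LMKO replicate 1, and the control call of Pold2 without either re-fed control library. With the length trend removed the LMKO call of Rfc4 was lost, and with a pseudocount of 0.1 or no filter that of Rfc5. Without overlap, 9 of the 41 were lower and 7 higher in re-fed LMKO livers than in re-fed control livers, against 21.6% and 21.0% of loci, so both counts lie near or below the background. In fasted LMKO livers 24 were higher and 1 lower than in fasted control livers, against 29.8% and 13.5% of loci. In fasted livers the smallest p was that of Rfc3 (fold 0.86, limma adjusted p = 0.182), so none passed.

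Of 45 other mitosis genes 13 were tested. In LMKO livers 6 rose and 2 fell with re-feeding, against 23.2% and 16.3% of loci, and in controls 7 rose and none fell, against 22.8% and 10.5% of loci. Cks1b, a partner of Cdk kinases that also helps to degrade p27, had 10.3 and 11.8 FPKM in re-fed LMKO, 9.03 and 8.94 in re-fed control, 2.69 and 2.28 in fasted LMKO and 0.797 and 1.17 in fasted control livers. Its fold was 1.79 in LMKO livers (SE 0.14, limma adjusted p = 0.000979) and 2.34 in controls (SE 0.14, adjusted p = 0.000694). Fasted LMKO levels lay above the fasted control ones (fold 0.82, limma adjusted p = 0.108). Cks2, the checkpoint protein Bub3, Cdca3 and the kinetochore protein Spc24 rose in both genotypes, the LMKO calls of Cdca3 and Spc24 being lost without fasted LMKO replicate 1 or re-fed LMKO replicate 2, and that of Cdca3 without fasted LMKO replicate 2. With the length trend removed the LMKO calls of Cks2, Cdca3 and Spc24 were lost. The 2 that fell in LMKO livers were Ube2c, the ubiquitin-conjugating enzyme of the anaphase-promoting complex (by 0.61, SE 0.15, limma adjusted p = 0.0195), and the condensin subunit Smc4 (by 0.55, SE 0.14, adjusted p = 0.0213). Both calls were lost without fasted LMKO replicate 2 or either re-fed LMKO library, and that of Ube2c without fasted LMKO replicate 1. Ube2c had 0.728 and 0.894 FPKM in re-fed LMKO, 1.84 and 2.35 in re-fed control, 1.92 and 1.62 in fasted LMKO and 1.51 and 2.04 in fasted control livers. After re-feeding 30 of the 45 were lower and 5 higher in LMKO than in control livers without overlap, against 21.6% and 21.0% of loci, and Ube2c had the smallest p (fold -0.77, limma adjusted p = 0.240).

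Of 19 regulators of the G1 phase tested, 2 rose and 4 fell with re-feeding in LMKO livers, where 23.2% of loci rose and 16.3% fell, and 3 rose and 4 fell in controls, where 22.8% rose and 10.5% fell. E2f2, an activating E2F, had 1.47 and 1.13 FPKM in re-fed LMKO, 1.21 and 1.34 in re-fed control, 0.121 and 0.101 in fasted LMKO and 0.0414 and 0.0637 in fasted control livers, with folds of 1.04 in LMKO livers (SE 0.12, limma adjusted p = 0.00212) and 1.11 in controls (SE 0.12, adjusted p = 0.00235). Rbl2, the Rb family protein p130 of quiescent cells, had 5.02 and 6.08 FPKM in re-fed LMKO, 6.63 and 6.72 in re-fed control, 15.1 and 14.2 in fasted LMKO and 13.8 and 12.1 in fasted control livers, and it fell by 1.26 in LMKO livers (SE 0.13, limma adjusted p = 0.00156) and by 0.86 in controls (SE 0.13, adjusted p = 0.00524). Rb1 fell and Ccnh rose in both genotypes; in LMKO livers both calls were lost without fasted LMKO replicate 1 or either re-fed LMKO library, and that of Ccnh without fasted LMKO replicate 2, and both with the length trend removed. E2f8, a repressing E2F, had 1.70 and 0.508 FPKM in re-fed LMKO, 0.651 and 0.761 in re-fed control, 2.08 and 5.90 in fasted LMKO and 4.67 and 5.15 in fasted control livers, and it fell by 1.79 in controls (SE 0.41, limma adjusted p = 0.0181), a call lost without any 1 of the 4 control libraries. Cdk2 and Tfdp2 fell in LMKO livers by 0.55 and 0.84 (limma adjusted p = 0.0279 and 0.0197), calls lost without fasted LMKO replicate 2 or either re-fed LMKO library, and for Cdk2 without fasted LMKO replicate 1 and with no filter, and for Tfdp2 with the length trend removed.

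Of 11 growth arrest genes tested, Ccng2 fell with re-feeding in LMKO livers, and Ccng2, Cdkn1a and Gadd45b fell and Gadd45a rose in controls, against the same shares of loci. Cdkn1a, the Cdk inhibitor p21, had 3.16 and 1.35 FPKM in re-fed LMKO, 0.764 and 0.576 in re-fed control, 4.44 and 1.09 in fasted LMKO and 4.30 and 27.7 in fasted control livers. The fasted controls differed widely, and the fold in controls was -2.89 (SE 0.80, limma adjusted p = 0.0342), a call lost without fasted control replicate 2, as were those of Ccng2, Gadd45a and Gadd45b in controls. Without re-fed control replicate 1 the calls of Cdkn1a, Ccng2 and Gadd45b were lost, and without re-fed control replicate 2 those of Cdkn1a and Gadd45b, and Gadd45b also lost its call without either re-fed LMKO library. The LMKO call of Ccng2 was lost without either fasted LMKO library or re-fed LMKO replicate 2, with no filter and with the length trend removed. With no filter the control calls of Cdkn1a and Gadd45b were lost too, and that of Cdkn1a with only the 4 control libraries. Gadd45a, a stress and growth arrest gene, had 2.28 and 6.55 FPKM in re-fed LMKO, 7.47 and 5.01 in re-fed control, 2.90 and 2.46 in fasted LMKO and 0.891 and 0.473 in fasted control livers, with a fold of 2.10 in controls (SE 0.38, limma adjusted p = 0.00950). No gene of these 2 regulator lists passed between the genotypes in either feeding state; in fasted livers Cdc25a had a fold of 0.48 (limma adjusted p = 0.182).

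**Figure D5:**
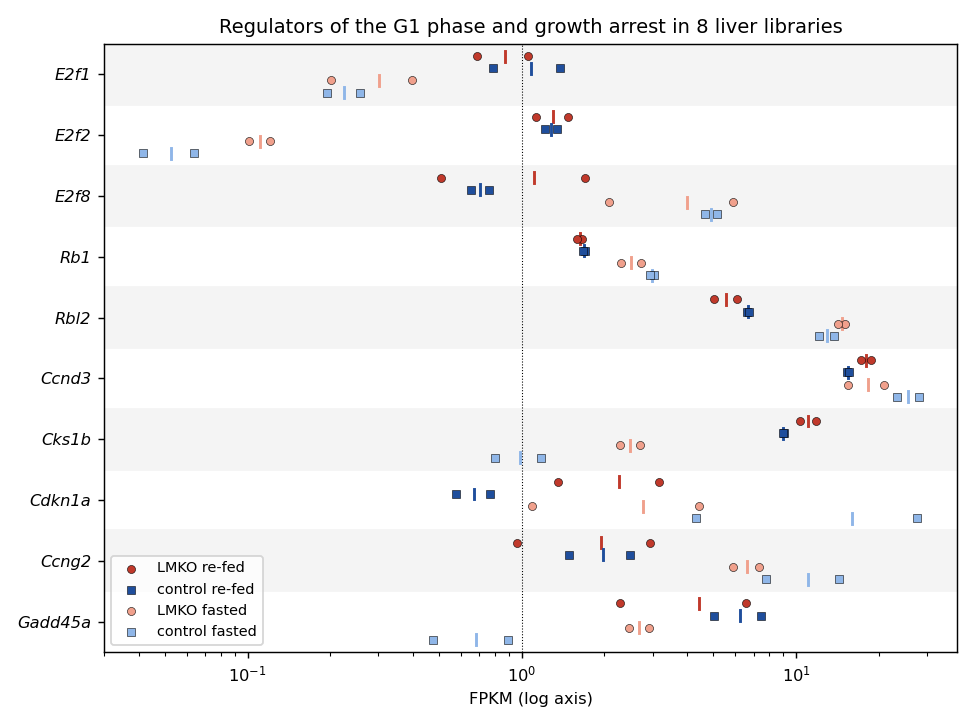
FPKM (log axis) of 10 regulators in each of 8 liver libraries; points are libraries, short bars the means of 2, circles LMKO and squares control, dark re-fed and pale fasted, and the dotted line is 1 FPKM. E2f2 is at least 1.13 FPKM in the re-fed livers and at most 0.121 FPKM in the fasted ones, and Rbl2 lies between 5.02 and 6.72 FPKM after re-feeding and between 12.1 and 15.1 FPKM after the fast.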

How the data were processed

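Per the labels, TruSeq libraries were made from polyadenylated liver RNA. Per the submitters' processing notes, the tools were TopHat 1.4.1, SAMtools 1.4.1, Cufflinks 2.0.2 and Cuffdiff 2.0.2, and the build was mm9. The authors deposited FPKM values per locus, which were used without further scaling. The numbers of fragments are unknown; recurring ratios of low values gave relative depths of 0.956 to 1.112. Groups follow the labels.

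Levels were tested as log2(FPKM + 1) with limma 3.58.1 under R 4.3.3, with 1 model of the 4 group means, a mean-variance trend, 4 residual and 2.74 prior degrees of freedom, and Benjamini-Hochberg adjustment over the 10865 loci with at least 1 FPKM in at least 2 libraries. Calls needed a two-sided adjusted p under 0.05. The procedure was tested on simulated data. The genes, lists and tests were chosen with earlier results of these data known. All 35 genes are named; from each further list, called genes with the smallest p, up to 5 per comparison, or up to 2 that did not pass. Per-library values of further genes were given for a few of these. Alternatives were pseudocounts of 0.1 and 0.5, other filters, scaling, no trend, only the 4 libraries compared, a replicate block, summed loci, removal of the length trend and leaving out each library. With 2 libraries a group, same-numbered libraries could not be shown to be paired.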

Additional observations from a re-analysis of the deposited data

Results flagged for a closer look

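Ccna2, Foxm1, Mki67 and Plk1 had LMKO levels below the control ones in both libraries after re-feeding and above them in both libraries after the fast. Of 15994 loci, 21.6% lay below in this way after re-feeding and 29.8% above after the fast, and the share with both was not counted. All 13 mitosis genes lay below after re-feeding, so these 4 are those that lay above after the fast. That count, 4 of 13, lies near the 29.8% of loci. Fasted levels of Mki67 were 0.0998 and 0.101 FPKM in LMKO and 0.0855 and 0.0845 FPKM in control livers. The difference was not tested with the filter on low levels, since all 4 genes stayed under 1 FPKM. With no filter, the difference between the responses on the log2(FPKM + 1) scale was -0.44 for Ccna2, -0.25 for Foxm1, -0.47 for Mki67 and -0.52 for Plk1, and limma's adjusted p was 0.494, 0.494, 0.512 and 0.312 in that order, so none passed. Cdt1, Mcm3, Mcm6 and Tk1 showed the same order of libraries, and their tested differences did not pass either (limma adjusted p = 0.572, 0.513, 0.507 and 0.481).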

How the results depend on the processing

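No gene of the 35 passed between the genotypes, or for the difference of the responses, under any alternative run. Ccnd1 and Dut rose with re-feeding in both genotypes, and Mcm3, Mcm6, Tk1 and Tyms in controls, in all 8 fits without a library. Replication calls with re-feeding in LMKO livers numbered 4, with 0 at FPKM of at least 5 and 1 to 6 without a library, at most 2 without any 1 of the 4 LMKO libraries. In controls they numbered 9, with 1 at FPKM of at least 5, a filter that left 4 of the 35 genes and no mitosis gene, and 5 to 10 without a library, the 5 without fasted control replicate 2. Mitosis calls in LMKO livers numbered 0, and 1 with a pseudocount of 0.1 or no filter. In controls they numbered 3, with 11 under no filter and 1 to 3 without a library, the 1 without fasted control replicate 2 or either re-fed control library.

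Over all genes, re-feeding calls were 4296 in LMKO livers, 2202 to 4257 without a library and lowest without any LMKO library. In controls they were 3610, with 1968 from only the 4 libraries compared and 1562 to 3166 without a library, the 1562 without fasted control replicate 2 and 1771 without re-fed control replicate 2. Genotype calls in re-fed livers were 11, and 3 to 14 without a library, with 3 without re-fed LMKO replicate 2 and 5 without re-fed control replicate 2. In fasted livers they were 18, with 11 under no filter, 8 from only 4 libraries and 11 to 56 without a library, the 56 without fasted control replicate 1 and the 11 without fasted LMKO replicate 1. Calls of the difference of responses were 4, with 7 under no filter, 2 with the length trend removed and 1 to 15 without a library. The 15 came without fasted control replicate 1, and 1 without either re-fed LMKO library. That difference turned sign in some fits without a library for Ccnd1 (-0.11, range -0.33 to 0.11, with 0.06 and 0.00 among them) and Gins1 (0.15, range -0.11 to 0.40, with -0.04 among them). The causes were not tested.

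Same-numbered libraries deviated from their group means with correlations of -0.084 to -0.008. No shared deviation was thus seen, which cannot exclude that they were paired, and the main fit took the numbers only as names. With a replicate block 7 replication genes were called in controls, without Mcm2, Mcm4 and Gins1 and with Rrm2, and no count changed by over 1.5 times. Of 60 calls in the further lists, 23 held in every fit in which the gene was tested, and none changed direction there. Levels under 1 FPKM limit the precision for most mitosis genes.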
